A study of Mus musculus with 66 samples.

Results

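The genes described here are 33 genes of glucose metabolism: the enzymes of glycolysis, gluconeogenesis and the pentose phosphate pathway, ketohexokinase and the mitochondrial pyruvate carrier. They were chosen by symbol and not by a rule on their levels, with earlier results of these data known. They are among the 8978 gene symbols of the mRNA table, as 37 of its 9481 transcripts. By role, 2 phosphorylate glucose, 7 act in upper and 6 in lower glycolysis, 2 are lactate dehydrogenases and 6 act in gluconeogenesis, while 3 belong to the oxidative and 4 to the non-oxidative branch of the pentose phosphate pathway. The last 3 are Khk and the carrier subunits Mpc1 and Mpc2, which are transport proteins and not enzymes. The levels were measured in small intestinal organoids of Lgr5 GFP-DTR/+ mice, which carry a reporter and toxin receptor at an endogenous stem cell gene, in 3 cultures. ENR organoids were grown with EGF, Noggin and R-Spondin and hold both stem and differentiated cells. CV organoids had 3 µM CHIR99021 and 1 mM valproic acid added to that medium for 5 days and are described by the study as enriched in stem cells. EN organoids were kept without R-Spondin for 2.5 days and are described as enriched in enterocytes. The cultures therefore differ in added compounds and in time as well as in cell types, and nothing in the labels says that the replicates came from separate cultures, so the p-values measure only the spread between these libraries.

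Glycolysis splits glucose into pyruvate, which is reduced to lactate by lactate dehydrogenase or carried into mitochondria. Gluconeogenesis runs in the opposite direction with its own enzymes at the irreversible steps, and the pentose phosphate pathway branches off to make NADPH and ribose phosphate. Absorptive enterocytes take up sugars from the gut lumen, and ketohexokinase opens the known route of fructose breakdown in these cells.

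RNA was sequenced from 4 libraries per culture, which held 5630977 to 8859757 expected counts. Accessibility (ATAC-seq) was measured in 4 libraries per culture, the histone marks H3K27ac, H3K4me3 and H3K27me3 by ChIPmentation in 3 libraries per culture each, and binding of the transcription factor Hnf4g in 1 library per culture. Levels are given as CPM, the counts of a transcript per 1000000 counts of its library after TMM normalization, where cultures are compared, and as TPM, which is corrected for transcript length, where genes are compared. Differences between cultures are log2 fold changes from edgeR's quasi-likelihood test with Benjamini-Hochberg adjustment over 9288 transcripts, and the threshold for calling a gene higher or lower was an adjusted p of 0.01. Each symbol is represented by its transcript with the highest mean count. EN versus ENR and CV versus ENR share the ENR libraries and are not independent of each other. The labels of the cultures were checked against marker lists. All 8 stem cell markers and all 9 proliferation markers were called lower and all 9 enterocyte markers higher in EN than in CV organoids, and the summed CPM of the enterocyte list was 6600 to 6980 in CV, 8398 to 9499 in ENR and 52443 to 54944 in EN libraries. The stem cell list summed to 1578 to 1665 CPM in CV, 3203 to 3337 in ENR and 84.2 to 94.6 in EN, and the proliferation list to 1510 to 1559, 2269 to 2380 and 179 to 196. CV libraries, although described as enriched in stem cells, thus held less of the stem cell list than ENR libraries, with 2 of its 8 markers called higher and 5 lower. The study's description rests on images of an Lgr5 reporter and on protein and mRNA markers. A summed CPM does not count cells and weighs abundant markers most. All 6 goblet markers, 4 of 4 tested enteroendocrine and 3 of 3 tested tuft markers were also called higher in EN than in CV. Of 5 Paneth markers, 4 were called lower. The same goblet, enteroendocrine and tuft markers were called higher in EN than in ENR too, and all 5 Paneth markers lower. The goblet list summed to 862 to 955 CPM in CV, 1958 to 2122 in ENR and 10263 to 11515 in EN. Of 12 markers of fibroblasts, endothelium, immune cells and muscle, 6 were tested and 2 were called higher and 1 lower in EN than in CV, with a summed CPM of 5.42 to 8.49 in CV, 8.81 to 9.82 in ENR and 23.6 to 29.7 in EN. Col3a1, Dcn, Pecam1, Cdh5 and Lyz2 were not in the table and Cd3e lay under the floor of 3 counts in every library. The part of these shifts in the differences below was not tested, and in such bulk samples fewer cells of a type and less RNA per cell cannot be told apart.

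Apart from Ldhb, the largest differences between CV and EN organoids lay in glucose phosphorylation, gluconeogenesis and fructose use. Ldhb, with no counts in EN, was at least 10.0-fold lower there than in CV. The hexokinases Hk1 and Hk2, which trap glucose as glucose 6-phosphate, were 11.3-fold and 6.75-fold lower in EN than in CV organoids. G6pc, Fbp1 and Pck1 of gluconeogenesis and the fructose enzyme Khk were higher in EN, by 19.1-fold for G6pc, 39.5-fold for Fbp1 and 7.50-fold for Khk. Of the other gluconeogenic genes, Fbp2 was 2.95-fold higher, while Pck2 was 3.88-fold and Pcx 1.66-fold lower. In total 13 of 33 genes were called higher and 14 lower in EN than in CV, which is 81.8% against 76.4% of all transcripts tested, and 9 genes changed at least 2-fold, which is 27.3% against 35.4%. The median log2 fold change was -0.0005 over the 33 genes and -0.08 over all transcripts. The share of calls was thus close to that of the whole table, and the genes did not move together.

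Against the mixed ENR culture, more of the genes were called higher than lower in EN and, separately, in CV organoids. In EN organoids 22 of 33 genes were called higher and 4 lower than in ENR (66.7% against 35.5% of all transcripts for the higher calls, and 78.8% against 72.7% for calls in either direction). In CV organoids 20 genes were called higher and 9 lower than in ENR (60.6% against 30.2% for the higher and 27.3% against 29.8% for the lower calls, and 87.9% against 60.0% in all). The median log2 fold change of the 33 genes was 0.39 in EN and 0.52 in CV, beside -0.01 over all transcripts in each comparison. At least 2-fold changes were made by 10 genes in EN versus ENR (30.3% against 30.1% of all transcripts) and by 9 in CV versus ENR (27.3% against 12.9%). The libraries of the cultures did not overlap for 27 genes in EN versus CV, 27 in EN versus ENR and 30 in CV versus ENR, against 76.5%, 74.2% and 65.7% of all transcripts. These directions depend in part on the scaling: with size factors from the spike-in transcripts the median of all transcripts shifted to -0.49 in EN versus CV, -0.52 in EN versus ENR and -0.10 in CV versus ENR, and 6, 8 and 0 of the genes called above changed sign. With the mRNA copies that the authors scaled to spike-ins the medians moved the other way, to 0.72, 1.06 and 0.26, and 8, 2 and 0 genes changed sign. The split of higher and lower calls in EN versus CV was 13 and 14 with TMM, 5 and 15 with spike-ins, 6 and 19 on log2(TPM + 1) and 16 and 4 on copies, and in EN versus ENR it was 22 and 4, 8 and 7, 19 and 7, and 26 and 1. With upper-quartile factors the split in EN versus ENR was 20 and 7. None of the changes of at least 2-fold changed sign under any scaling tried.

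**Figure D1:**
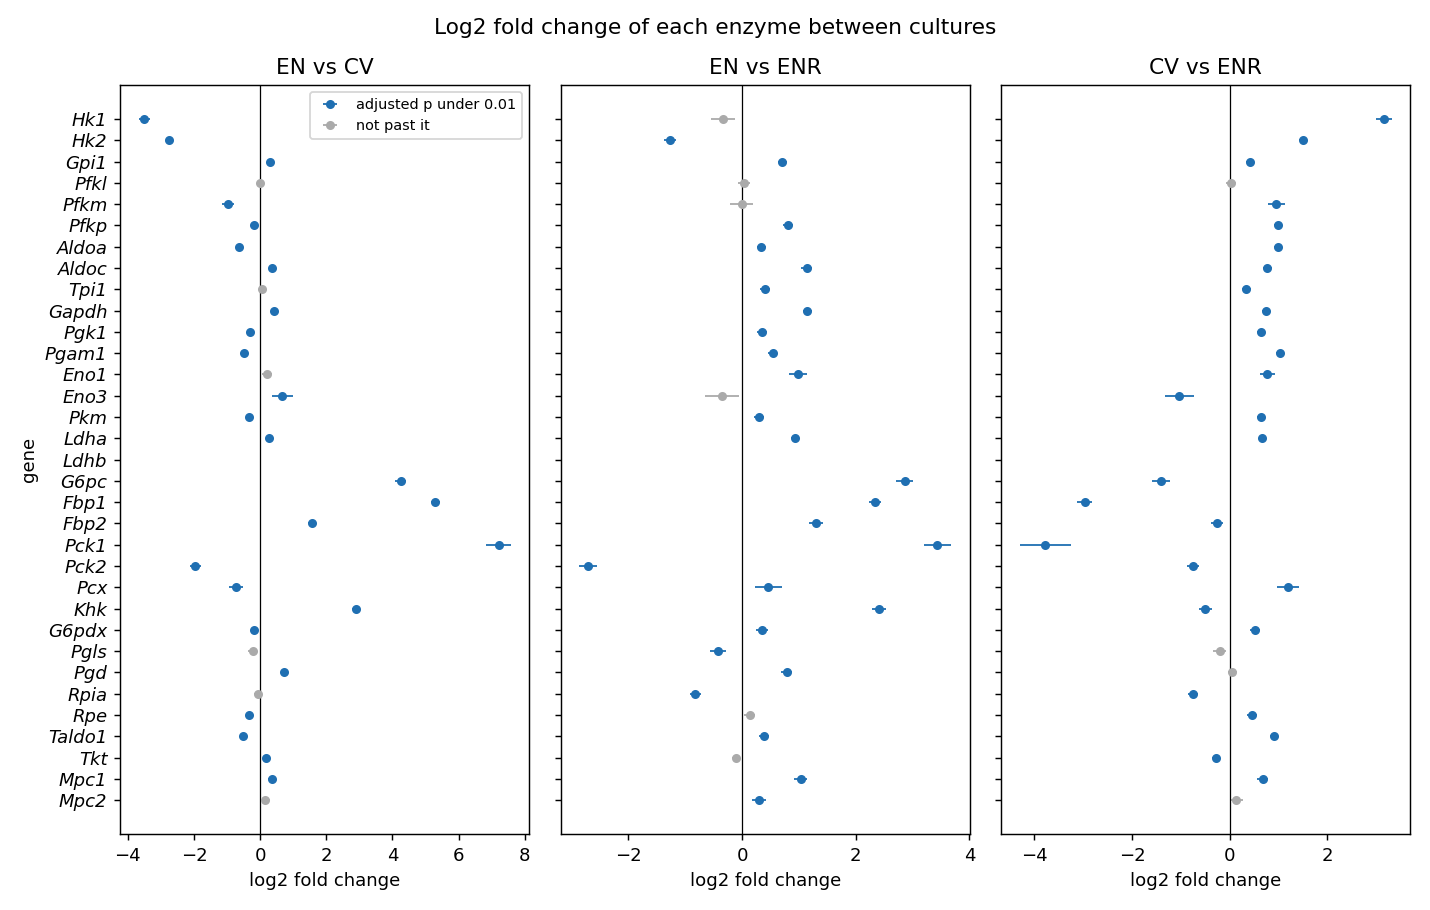
Log2 fold change of each of 32 genes (rows) in EN versus CV, EN versus ENR and CV versus ENR organoids, with bars of 2 standard errors, in blue where the adjusted p was under 0.01 and in grey where it was not. Ldhb is left without a point because its counts were 0 in EN and at or near 0 in ENR. Pck1, Fbp1, G6pc and Khk lie far to the right and Hk1, Hk2 and Pck2 to the left in EN versus CV, while most glycolytic genes lie right of 0 in CV versus ENR.

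In glucose phosphorylation, both hexokinases were highest in CV organoids. Hk1 (XM_006513247.1, chr10:61731603-61842656 in mm9), the hexokinase of many tissues, was measured at 136, 135, 132 and 126 CPM in CV, at 15.1, 17.0, 12.6 and 14.5 CPM in ENR and at 12.7, 10.7, 9.63 and 13.1 CPM in EN libraries. Every CV library lay above all others, while ENR and EN libraries overlapped. The log2 fold change of Hk1 was -3.50 (SE 0.09, adjusted p = 7.45e-15) in EN versus CV, 3.16 (SE 0.08, 1.17e-13) in CV versus ENR and -0.34 (SE 0.11) in EN versus ENR, where the adjusted p of 0.0101 just missed the threshold. Hk2 (NM_013820.3, chr6:82675019-82724448), an inducible hexokinase, was measured at 152, 151, 148 and 154 CPM in CV, 53.9, 54.0, 52.5 and 53.7 in ENR and 24.4, 21.6, 22.1 and 21.0 in EN. The 3 cultures were separate for Hk2, with a log2 fold change of -2.75 (SE 0.05, adjusted p = 2.33e-16) in EN versus CV, -1.26 (SE 0.05, 5.56e-12) in EN versus ENR and 1.50 (SE 0.04, 3.59e-13) in CV versus ENR. The call in EN versus ENR was lost on the copies scale (log2 fold change -0.26), where the median of all transcripts was 1.06. The summed TPM of both hexokinases was 101 ± 1.56 in CV, 19.8 ± 0.849 in ENR and 9.28 ± 0.848 in EN (SD, n = 4), and Hk1 made up 56.2% ± 1.10 of it in CV, 28.8% ± 2.31 in ENR and 43.0% ± 3.65 in EN. Hkdc1, a hexokinase-related gene of the wider pathway list that is named here after its values had been seen, was instead highest in EN. It stood at 136 ± 5.45 CPM in CV, 102 ± 4.83 in ENR and 312 ± 22.2 in EN. Its log2 fold change was 1.198 (SE 0.05, adjusted p = 6.83e-12) in EN versus CV. In CV versus ENR it was called higher (0.42, SE 0.06, 7.54e-06), the same direction as Hk1 and Hk2.

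Shown here are the 250 bases before the start of Hk2, because the accessibility of the region that covers them was called lower in EN than in CV organoids (below). They lie at chr6:82774455-82774704 of GRCm38.p6 on the minus strand, are taken from RefSeq, and have a single exact match in mm9 at chr6:82724449-82724698, all 250 bases of it inside a region of the chromatin table. They are rich in CpG, with 25 CpG and a GC content of 69.6%, and hold no word in capitals.
Hk2: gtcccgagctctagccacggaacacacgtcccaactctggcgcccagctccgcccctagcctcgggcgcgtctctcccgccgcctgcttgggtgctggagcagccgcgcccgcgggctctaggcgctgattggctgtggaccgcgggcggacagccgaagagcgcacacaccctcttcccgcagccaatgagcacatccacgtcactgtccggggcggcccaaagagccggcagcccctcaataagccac

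Upper glycolysis turns glucose 6-phosphate into triose phosphates. Of its 7 genes, 6 were called higher in CV than in ENR organoids (85.7% against 30.2% of all transcripts) and none lower. Pfkl was not called. In EN versus ENR, 5 were called higher (71.4% against 35.5%) and none lower. Of the 5, Aldoa and Tpi1 turned below 0 with spike-in scaling. In EN versus CV, Gpi1 and Aldoc were called higher (28.6% against 35.2%) and Pfkm, Pfkp and Aldoa lower (42.9% against 41.2%). With spike-in scaling Gpi1 and Aldoc, and on the copies scale Pfkp and Aldoa, had the opposite sign. A second Aldoa transcript, XM_006507209.1, was lower in EN than in CV by a log2 fold change of -1.19 (SE 0.11, adjusted p = 8.96e-08). In EN versus ENR that transcript was not called (-0.25), while the main Aldoa transcript was called higher (0.34). Aldoc (NM_001303423.1, chr11:78136470-78141283), the aldolase known from brain, was the gene of this group whose main transcript differed at least 2-fold. It was measured at 196, 206, 215 and 195 CPM in CV, 128, 117, 117 and 115 in ENR and 268, 266, 270.1 and 249 in EN, with no overlap between cultures, and its log2 fold change in EN versus ENR was 1.14 (SE 0.05, adjusted p = 3.57e-12). The phosphofructokinases, which catalyse the committed step of glycolysis, differed among themselves. Pfkl, the liver form, stood at 490.1 ± 11.5 CPM in CV, 479 ± 6.98 in ENR and 489.9 ± 43.1 in EN, and was not called in any comparison (adjusted p 0.993, 0.572 and 0.583). Pfkp, the platelet form, was 559 ± 19.5, 280.0 ± 8.06 and 492 ± 24.9 CPM and was called in all 3 comparisons. Pfkm, the muscle form, was 46.5 ± 3.01, 23.9 ± 2.37 and 23.7 ± 2.83 CPM and was called higher in CV than in the other cultures. The triose phosphate isomerase Tpi1 (1361 ± 41.8, 1074 ± 15.6 and 1422 ± 95.1 CPM) and the glucose 6-phosphate isomerase Gpi1 (789 ± 12.1, 594 ± 22.1 and 970.3 ± 57.4 CPM) were lowest in ENR.

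In lower glycolysis, which yields ATP and pyruvate, 5 of 6 genes were called higher than in ENR in both EN and CV organoids. That is 83.3%, against 35.5% of all transcripts in EN and 30.2% in CV. Pgk1 and Pkm turned below 0 in EN versus ENR with spike-in scaling. Gapdh (NM_008084.3, chr6:125111871-125116485), which oxidises glyceraldehyde 3-phosphate and often serves as a reference gene, was measured at 1608, 1528, 1538 and 1537 CPM in CV, 930.3, 911, 935 and 939 in ENR and 2226, 2021, 2048 and 1947 in EN. No libraries of different cultures overlapped, and its log2 fold change was 1.15 (SE 0.04, adjusted p = 3.87e-13) in EN versus ENR and 0.74 (SE 0.04, 2.71e-10) in CV versus ENR. In EN versus CV it was 0.41 (SE 0.04, 8.14e-08) and fell to -0.0025 with spike-in scaling. Pgam1 (NM_023418.2, chr19:41986361-41993154), a phosphoglycerate mutase, was highest in CV, at 1028, 1029, 1077 and 986 CPM, against 499, 508, 513 and 490.0 CPM in ENR and 732, 715, 784 and 691 CPM in EN. It differed by a log2 fold change of 1.04 (SE 0.04, adjusted p = 1.13e-11) in CV versus ENR and -0.50 (SE 0.04, 1.37e-08) in EN versus CV, of which the second turned to 0.36 on the copies scale. Eno3 (NM_007933.3, chr11:70470704-70476015), the enolase of muscle, was scarce and ran the other way, with 5.53, 3.74, 4.37 and 5.42 CPM in CV, 9.22, 9.65, 10.3 and 9.82 in ENR and 8.31, 8.56, 6.42 and 7.20 in EN. It was lower in CV than in ENR (log2 fold change -1.03, SE 0.15, adjusted p = 2.21e-05), a call lost on the copies scale, and not called in EN versus ENR (-0.36, SE 0.15, 0.0382). The main enolase Eno1 was 1099 ± 145 CPM in CV, 646 ± 45.0 in ENR and 1273 ± 57.8 in EN, and its difference between EN and CV was not called (adjusted p = 0.0186). Pkm, the pyruvate kinase, was the most abundant of the 33 genes per length in CV organoids, where its 2634 ± 48.5 TPM ranked 68th of 8978 symbols, with 1430.2 ± 43.7 TPM in ENR and 1558 ± 109.6 TPM in EN. Of its 2 listed transcripts, XM_011242673.1 held 12.3% ± 1.57 of the summed TPM in CV, 7.27% ± 1.04 in ENR and 6.06% ± 0.952 in EN. This transcript was lower in EN than in CV (log2 fold change -1.46, SE 0.12, adjusted p = 2.7e-08). It was higher in CV than in ENR (1.48, SE 0.12, 5.13e-08). How the counts were divided between transcripts that share most of their sequence rests on the estimate of kallisto.

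Gapdh, Pgk1, Pgam1, Aldoa, Ldha, Tpi1 and Eno1 have processed pseudogenes or close copies in the mouse genome, and the counting index was limited to transcripts of proteins detected by mass spectrometry, so reads of such copies could have been assigned to these genes.

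Lactate dehydrogenase converts pyruvate to lactate and back. Ldha, the form of glycolytic tissues, was 1770.0 ± 14.4 CPM in CV, 1118 ± 28.3 in ENR and 2135 ± 81.7 in EN and was called higher in both other cultures than in ENR. In EN versus CV its log2 fold change was 0.27 (SE 0.03, adjusted p = 1.63e-06), but -0.15 with spike-in scaling and -0.05 on log2(TPM + 1). Ldhb (NM_008492.3, chr6:142438769-142456477), the form of oxidative tissues such as heart, was found in CV organoids at 4.58, 5.47, 5.70 and 4.46 CPM, from 34, 41, 43 and 37 expected counts. It had 1 count in 1 ENR library, none in the other 3, and none in any EN library. With a floor of 3 counts per library, Ldhb was at least 10.0-fold higher in CV than in EN (adjusted p = 1.09e-07) and at least 11.8-fold higher than in ENR (2.54e-07). Even in CV it made up only 0.364% ± 0.0430 of the summed TPM of Ldha and Ldhb.

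**Figure D2:**
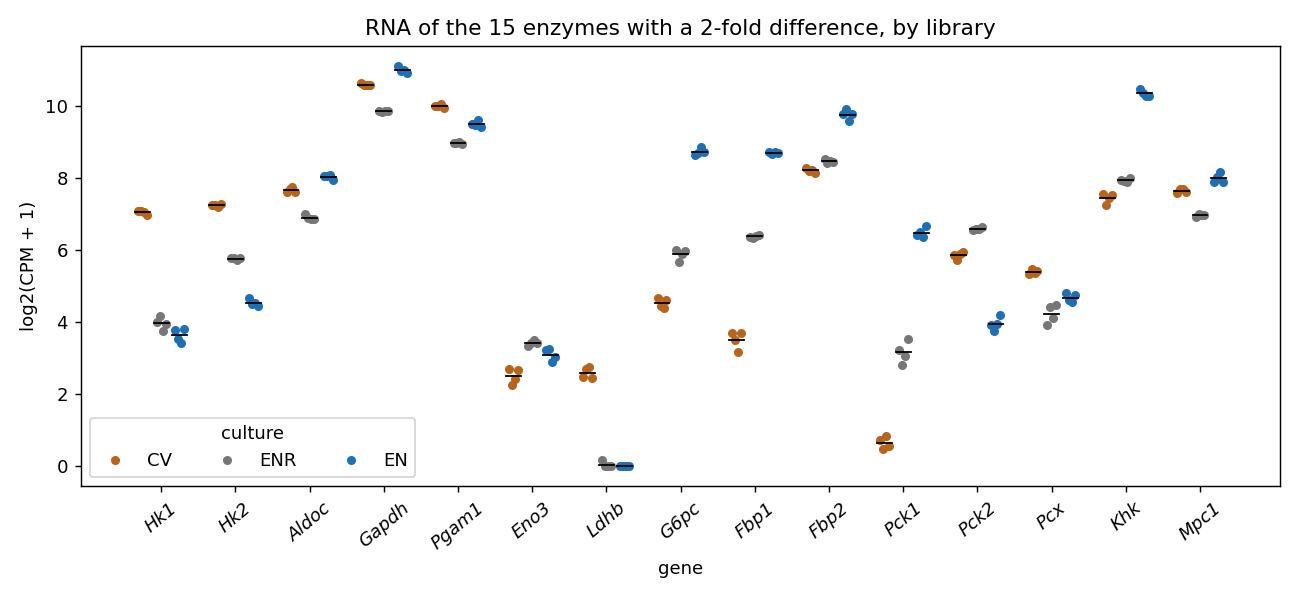
RNA level as log2(CPM + 1) of the 15 genes with a called difference of at least 2-fold, with 1 point per library (4 each in CV, ENR and EN) and a line at the mean of each culture. Hk1 and Hk2 are highest in CV, G6pc, Fbp1, Fbp2, Pck1 and Khk in EN, and Pck2 lowest in EN, while Ldhb lies at or near 0 in ENR and EN.

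Gluconeogenesis was the group with the largest rises. Of its 6 genes, 4 were called higher and 2 lower in EN versus CV (66.7% and 33.3%, against 35.2% and 41.2% of all transcripts). In EN versus ENR, 5 were called higher and 1 lower (83.3% and 16.7%, against 35.5% and 37.2%). In CV versus ENR, 1 was called higher and 5 lower (16.7% and 83.3%, against 30.2% and 29.8%). Apart from Pcx in EN versus ENR, which had a log2 fold change of -0.04 with spike-in scaling, none of these calls changed sign under any scaling. The summed TPM of the group rose from 495 ± 15.8 in CV and 634 ± 17.6 in ENR to 1715 ± 69.7 in EN (SD, n = 4), values that are given without a test.

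G6pc (NM_008061.4, chr11:101228875-101239217), the glucose 6-phosphatase subunit that releases free glucose, was measured at 24.7, 20.8, 19.9 and 23.7 CPM in CV, 63.1, 49.7, 58.8 and 62.3 in ENR and 400.3, 413, 467 and 426 in EN. The cultures stood in the order CV, ENR, EN without overlap, with a log2 fold change of 4.26 (SE 0.08, adjusted p = 4.88e-16) in EN versus CV, 2.86 (SE 0.07, 1.36e-14) in EN versus ENR and -1.40 (SE 0.09, 3.43e-09) in CV versus ENR. Fbp1 (NM_019395.3, chr13:62966113-62989642), the fructose 1,6-bisphosphatase of liver and kidney, was measured at 11.99, 10.3, 8.09 and 11.9 CPM in CV, 82.3, 80.2, 82.9 and 85.7 in ENR and 425, 405, 427 and 417 in EN. It followed the same order, with a log2 fold change of 5.30 (SE 0.07, adjusted p = 1.26e-17) in EN versus CV, 2.34 (SE 0.05, 4.97e-15) in EN versus ENR and -2.96 (SE 0.08, 1.37e-13) in CV versus ENR. Its relative Fbp2 (NM_007994.3, chr13:62938244-62959760), known from muscle and lying beside Fbp1 on the chromosome, was more abundant per length but changed less. It was measured at 312, 293, 300.2 and 282 CPM in CV, 368, 341, 357 and 350.5 in ENR and 878, 974, 769 and 879 in EN. The log2 fold change of Fbp2 was 1.56 (SE 0.06, adjusted p = 1.16e-12) in EN versus CV, 1.30 (SE 0.06, 1.09e-11) in EN versus ENR and -0.26 (SE 0.06, 0.00127) in CV versus ENR.

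The phosphoenolpyruvate carboxykinases changed in opposite directions. Pck1 (NM_011044.2, chr2:172978549-172984774), the cytosolic form, was measured at 0.674, 0.400, 0.795 and 0.482 CPM in CV, from 3.01 to 5.58 expected counts per library, and so close to the floor of 3 counts. It was at 8.45, 6.05, 7.29 and 10.7 CPM in ENR and at 85.6, 90.4, 81.3 and 100.2 CPM in EN. No libraries overlapped, and the log2 fold change was 3.44 (SE 0.12, adjusted p = 6.92e-13) in EN versus ENR and, with few counts in CV, 7.21 (SE 0.18, 1.24e-14) in EN versus CV and -3.78 (SE 0.26, 5.86e-09) in CV versus ENR. Pck2 (NM_028994.2, chr14:56159103-56168854), the mitochondrial form, was measured at 57.8, 51.7, 58.2 and 61.4 CPM in CV, 94.4, 94.7, 95.7 and 99.8 in ENR and 14.1, 12.6, 14.4 and 17.3 in EN. It was lowest in EN, with a log2 fold change of -1.96 (SE 0.08, adjusted p = 4.03e-12) against CV and -2.70 (SE 0.08, 6.87e-14) against ENR. Pcx (XM_006531678.3, chr19:4510472-4621752), the pyruvate carboxylase that feeds both gluconeogenesis and the citric acid cycle, was highest in CV, at 39.2, 43.5, 40.4 and 42.0 CPM, against 14.2, 20.3, 16.2 and 21.5 CPM in ENR and 27.3, 23.3, 22.5 and 25.9 CPM in EN. All CV libraries lay above the rest, with a log2 fold change of 1.19 (SE 0.11, adjusted p = 1.42e-07) in CV versus ENR and -0.73 (SE 0.11, 1.29e-05) in EN versus CV.

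Khk (NM_008439.4, chr5:31223929-31233619), ketohexokinase, which phosphorylates fructose, was measured at 188, 152, 175 and 184 CPM in CV, 249, 240.4, 237 and 258 in ENR and 1417, 1324, 1257 and 1246 in EN. No libraries of different cultures overlapped. Its log2 fold change was 2.91 (SE 0.06, adjusted p = 1.67e-15) in EN versus CV, 2.41 (SE 0.06, 1.39e-14) in EN versus ENR and -0.49 (SE 0.06, 4.64e-06) in CV versus ENR. Per length, Khk ranked 523rd of 8978 symbols in CV, 349th in ENR and 130th in EN, where its 1413 ± 86.1 TPM lay beside the 1558 ± 109.6 TPM of Pkm. Its other transcripts NM_001310524.1 and XM_006503749.1 had 7.04% ± 1.44 and 1.09% ± 0.312 of the summed TPM of Khk in EN. NM_001310524.1 was also called higher in EN than in CV (log2 fold change 2.30, SE 0.22, adjusted p = 8.19e-08). XM_006503749.1 was not called in any comparison.

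Isozymes can be compared as shares of the summed TPM of their family within a library, which do not depend on the scaling between libraries. Among the PEP carboxykinases, Pck1 held 1.30% ± 0.329 in CV, 10.0% ± 2.00 in ENR and 89.0% ± 0.997 in EN (SD, n = 4). Fbp1 held 2.97% ± 0.530, 16.7% ± 0.509 and 29.2% ± 2.42 of the fructose bisphosphatases. Pfkl held 35.7% ± 1.03, 52.0% ± 0.501 and 39.4% ± 1.05 of the phosphofructokinases, and Pfkp took most of the remainder. The ranges of the 4 libraries of each culture did not overlap for any of these shares except that of Pfkp in CV and EN.

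**Figure D3:**
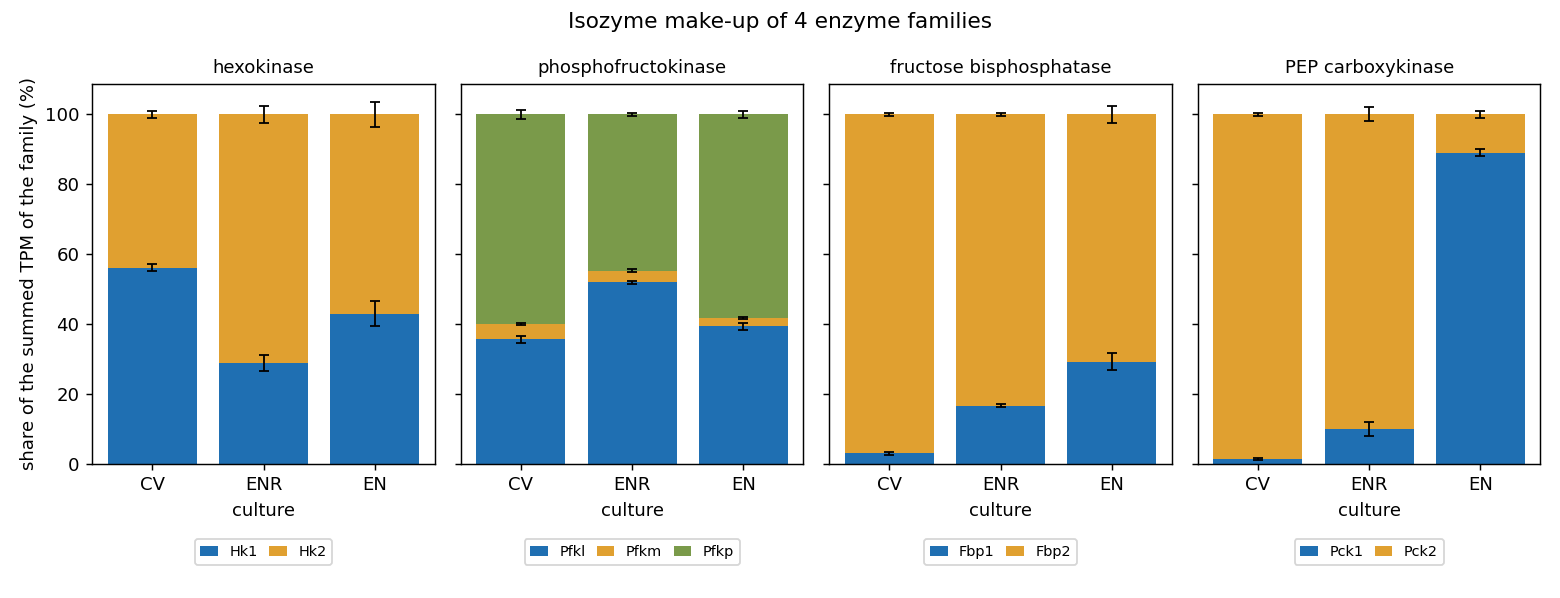
Share (%) of each isozyme in the summed TPM of its family in CV, ENR and EN organoids, as stacked bars of the means of 4 libraries with error bars of 1 SD on each segment. Pck1 grows from 1.30% in CV to 89.0% in EN, while Hk1 and Pfkl are at their lowest and highest in ENR.

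The sequences before the starts of G6pc, Fbp1, Pck1 and Khk are shown because these genes had the largest rises in EN organoids and because regions of the chromatin table cover their start sites. Each is 250 bases of RefSeq sequence (GRCm38.p6), with a single exact match in mm9. They lie at chr11:101367466-101367715 (plus strand, mm9 chr11:101228780-101229029), chr13:62888283-62888532 (minus strand, mm9 chr13:62989643-62989892), chr2:173152823-173153072 (plus strand, mm9 chr2:172978324-172978573) and chr5:30921309-30921558 (plus strand, mm9 chr5:31223682-31223931), and 250, 179, 250 and 185 of their bases fall in regions of the table. Capitals mark the word TATAAA in G6pc, whose first base lies 29 bases before the start, and the E-box CACGTG in Khk, 71 bases before it.
G6pc: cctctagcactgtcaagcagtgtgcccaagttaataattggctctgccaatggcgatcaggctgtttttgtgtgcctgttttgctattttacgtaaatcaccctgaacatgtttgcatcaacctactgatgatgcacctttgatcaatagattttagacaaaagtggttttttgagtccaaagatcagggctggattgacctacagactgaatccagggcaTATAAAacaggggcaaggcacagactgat
Fbp1: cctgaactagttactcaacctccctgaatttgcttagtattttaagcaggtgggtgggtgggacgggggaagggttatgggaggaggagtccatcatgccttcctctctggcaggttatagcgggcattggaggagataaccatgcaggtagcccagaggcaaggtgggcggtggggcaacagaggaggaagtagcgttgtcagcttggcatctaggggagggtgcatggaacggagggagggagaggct
Pck1: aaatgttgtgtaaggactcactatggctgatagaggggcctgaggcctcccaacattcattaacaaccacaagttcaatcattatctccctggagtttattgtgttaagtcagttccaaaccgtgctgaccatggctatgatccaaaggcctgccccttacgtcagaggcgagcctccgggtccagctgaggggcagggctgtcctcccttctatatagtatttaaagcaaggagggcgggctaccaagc
Khk: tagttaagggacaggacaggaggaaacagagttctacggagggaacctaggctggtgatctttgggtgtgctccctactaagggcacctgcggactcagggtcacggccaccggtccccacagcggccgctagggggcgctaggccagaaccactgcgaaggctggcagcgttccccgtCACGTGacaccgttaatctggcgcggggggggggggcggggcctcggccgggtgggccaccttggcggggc
The G6pc, Fbp1 and Pck1 sequences hold 2, 5 and 5 CpG, against 18 in Khk and 25 in Hk2. Over 300-base promoters (250 bases before and 50 after the start) the median ratio of observed to expected CpG was 0.668 in the 47 promoters of the 33 genes and 0.384 in all 32851 promoters, and it was 0.245 for G6pc, 0.292 for Fbp1 and Fbp2 and 0.296 for Pck1. The word CACGTG, on either strand, was in 10.6% of the 47 promoters (those of Fbp2, Khk, Ldha, Pcx and Pfkm) and in 7.15% of all. The Hnf4 word CAAAGTCCA, on either strand, was in none of the 47 promoters and in 0.475% of all. TATAAA on the gene's strand, a word added after values had been seen, was in the promoter of G6pc alone, or 2.13% of the 47, and in 8.32% of all. A word is a match of letters and does not show that a factor binds.

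In the oxidative branch of the pentose phosphate pathway, which makes NADPH, the genes did not move as a group. Pgd, the phosphogluconate dehydrogenase, was 82.6 ± 4.09 CPM in CV, 79.8 ± 3.04 in ENR and 137 ± 4.02 in EN and was called higher in EN than in both other cultures (log2 fold change 0.73 and 0.78, SE 0.05 each, adjusted p = 4.71e-10 and 2.75e-10). G6pdx, the glucose 6-phosphate dehydrogenase that opens the pathway, was 65.5 ± 3.54, 45.6 ± 0.919 and 58.2 ± 2.53 CPM and was called lowest in ENR. Its difference in EN versus CV (-0.17, SE 0.05, adjusted p = 0.0071) turned positive on the copies scale, and that in EN versus ENR turned negative with spike-in scaling. The lactonase Pgls was called lower in EN than in ENR (-0.42, SE 0.07, 5.76e-05), with the opposite sign on the copies scale, and in no other comparison. In the non-oxidative branch, which interconverts sugar phosphates, Taldo1 (transaldolase) was highest in CV, at 895 ± 19.8 CPM against 475 ± 12.1 in ENR and 622 ± 37.2 in EN, and was called in all 3 comparisons, of which EN versus CV turned positive on the copies scale (0.33) and EN versus ENR negative with spike-in scaling (-0.14). Rpia, the ribose 5-phosphate isomerase, was highest in ENR, at 99.4 ± 2.67 CPM against 59.1 ± 1.85 in CV and 56.0 ± 3.81 in EN, and its difference in EN versus ENR had the opposite sign on the copies scale (0.10). Rpe, the epimerase, was highest in CV (125 ± 5.83 CPM against 90.8 ± 3.55 in ENR and 99.8 ± 4.47 in EN), and Tkt, transketolase, in ENR (1163 ± 15.9 CPM against 954 ± 15.7 in CV and 1084 ± 46.9 in EN). The EN and ENR libraries overlapped for Tkt, and that difference was not called (-0.10, SE 0.03, adjusted p = 0.0113). In EN versus CV the difference of Rpe turned positive on the copies scale (0.49), and that of Tkt negative with spike-in scaling (-0.24) and on log2(TPM + 1) (-0.13). None of these 7 genes changed 2-fold. The summed TPM of the non-oxidative branch was 1915 ± 20.9 in CV, 1289 ± 11.8 in ENR and 1256 ± 34.6 in EN.

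Pyruvate enters mitochondria through a carrier made of Mpc1 and Mpc2. Mpc1 (XM_011246219.2, chr17:8475769-8490526) was measured at 190.4, 206, 206 and 194 CPM in CV, 121, 129, 125 and 125 in ENR and 237, 259, 289 and 236 in EN, without overlap between cultures. Its log2 fold change was 1.03 (SE 0.06, adjusted p = 2.45e-10) in EN versus ENR, 0.67 (SE 0.06, 9.2e-08) in CV versus ENR and 0.36 (SE 0.06, 3.26e-05) in EN versus CV, of which the last was -0.07 with spike-in scaling. Mpc2 stood at 67.6 ± 4.32 CPM in CV, 61.5 ± 4.10 in ENR and 75.6 ± 5.08 in EN and was called only in EN versus ENR (0.30, SE 0.07, 0.000673), with a log2 fold change of -0.22 there with spike-in scaling. All 33 genes together held 1.89% of the TPM in CV, 1.13% in ENR and 1.66% in EN.

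Of 68 other genes of sugar and pyruvate metabolism, 62 were tested, and 30 were called higher and 26 lower in EN than in CV, 35 higher and 19 lower in EN than in ENR, and 32 higher and 13 lower in CV than in ENR. Over all transcripts, 35.2% were called higher and 41.2% lower in EN versus CV. The shares were 35.5% and 37.2% in EN versus ENR, and 30.2% and 29.8% in CV versus ENR. The median log2 fold change of the 62 genes was 0.20, 0.51 and 0.25, beside -0.08, -0.01 and -0.01 over all transcripts. The 6 largest differences between EN and CV included the sugar transporters Slc2a2 (47.4 ± 3.65 CPM in CV, 93.2 ± 13.0 in ENR and 902 ± 73.8 in EN) and Slc2a5 (22.4 ± 2.59, 55.5 ± 4.43 and 344 ± 24.0 CPM), which carry glucose and fructose, and fructose. Aldo-keto reductases went both ways, with Akr1b7 at 5.48 ± 0.806, 23.5 ± 2.85 and 268 ± 8.31 CPM and Akr1b8 at 145 ± 1.72, 24.7 ± 1.17 and 10.5 ± 0.789 CPM. The glycogen phosphorylase Pygl was 0.656 ± 0.546, 5.50 ± 0.875 and 13.9 ± 0.933 CPM, from at most 11 counts in CV. Pdk4, a kinase that inhibits pyruvate dehydrogenase, was 42.8 ± 3.08 CPM in CV, 1.49 ± 0.565 in ENR and 2.86 ± 0.445 in EN. All 6 differences between EN and CV passed the test, with log2 fold changes of 5.60 (Akr1b7), 4.37 (Pygl), 4.25 (Slc2a2), 3.93 (Slc2a5), -3.89 (Pdk4) and -3.79 (Akr1b8) and adjusted p-values from 4.97e-17 to 1.89e-09.

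The chromatin tables give a normalized score for each of 94469 regions, rounded to whole numbers by the authors. 60 regions lay within 500 bp of an annotated start of 32 of the 33 genes (GENCODE annotation of mm9), and Eno3 had none. Scores were compared as log2(score + 1) with limma and Benjamini-Hochberg adjustment over all regions of a dataset. For ATAC, 9 of the 60 regions were called higher and 5 lower in EN than in CV (23.3% against 24.4% of all regions), 3 higher and 3 lower in EN than in ENR (10.0% against 14.0%), and 3 higher and 5 lower in CV than in ENR (13.3% against 7.93%). With quantile normalization the split of higher and lower calls turned to 5 and 12 in EN versus CV, 2 and 7 in EN versus ENR and 4 and 4 in CV versus ENR. The summed ATAC score of a library rose from 1752385 to 1840402 in CV through 1897795 to 1962331 in ENR to 1993594 to 2109261 in EN, and its part in these calls was not tested. When all 207 regions inside the genes or within 10 kb of them were taken, a distance chosen after the data had been seen, 35 were called higher and 26 lower in EN than in CV (29.5%).

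At the start of Pck1 (chr2:172977755-172978676) the ATAC score was 65, 61, 57 and 67 in CV, 145, 146, 150 and 139 in ENR and 237, 233, 277 and 327 in EN libraries. The cultures did not overlap, in the order of the mRNA, and all 3 differences were called (log2 2.07, SE 0.11, adjusted p = 6.35e-10 in EN versus CV, 0.87, 2e-05 in EN versus ENR and -1.20, 1.71e-06 in CV versus ENR). At Fbp1 (chr13:62988866-62989821, a region that also covers the start of Gm17367) it was 26, 17, 17 and 28 in CV, 90, 91, 77 and 78 in ENR and 79, 104, 128 and 141 in EN. There EN and ENR libraries overlapped, and the region was called in EN versus CV (2.31, SE 0.19, adjusted p = 6.04e-08) and in CV versus ENR (-1.92, SE 0.19, 3.52e-06) but not in EN versus ENR (0.39, SE 0.19, 0.141). At G6pc (chr11:101228723-101229112) the scores were low, at 2, 3, 3 and 8 in CV, 11, 14, 9 and 11 in ENR and 35, 29, 18 and 37 in EN, and differed between EN and CV by 2.70 (SE 0.31, adjusted p = 2.47e-06). Its calls against ENR rested on single libraries. That in EN (1.29, adjusted p = 0.00491) was lost without any of EN replicates 1, 2 and 4 and ENR replicates 1, 3 and 4 (up to 0.0202), and that in CV (-1.41, 0.00425) without any of CV replicates 1, 2 and 3 and ENR replicates 1, 2 and 4 (up to 0.0206). At Khk (chr5:31223747-31225191) and Fbp2 (chr13:62958254-62960497), whose mRNA rose, the ATAC score did not separate the cultures. At Khk it averaged 60.8 ± 7.89 in CV, 58.8 ± 14.4 in ENR and 61.2 ± 6.85 in EN (SD, n = 4), and at Fbp2 312 ± 32.4, 319 ± 18.6 and 315 ± 56.6, with adjusted p = 0.963 and 0.995 in EN versus CV. A weaker region at another annotated start of Khk (chr5:31233226-31233526) was called lower in EN than in ENR (-1.17, SE 0.29, 0.00651), at scores of 5.25 ± 2.22 against 12.8 ± 3.78, a call lost without EN replicate 3 or 4 or ENR replicate 1, 2 or 4 (up to 0.0322).

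The hexokinases showed the opposite order. At Hk1 (chr10:61802181-61803624, shared with the start of 2210417K05Rik) the ATAC score was 151, 169, 139 and 146 in CV, 128, 108, 93 and 89 in ENR and 59, 67, 63 and 54 in EN. It was called lower in EN than in CV (log2 -1.30, SE 0.12, adjusted p = 3.36e-07) and than in ENR (-0.76, SE 0.12, 0.000216), although the mRNA of Hk1 was not called in EN versus ENR. At Hk2 a region at an annotated start (chr6:82723195-82724045) scored 23, 26, 22 and 31 in CV, 24, 18, 24 and 24 in ENR and 9, 8, 4 and 9 in EN, and its neighbour over the printed sequence (chr6:82724087-82724857) 124, 118, 122 and 117, then 104, 86, 85 and 91, then 70, 80, 69 and 60. Both were called lower in EN than in CV (-1.68, SE 0.23, adjusted p = 1.69e-05 and -0.78, SE 0.11, 2.62e-05). At Ldhb (chr6:142455923-142456712) the score was 34, 31, 33 and 34 in CV, 16, 13, 20 and 15 in ENR and 11, 9, 13 and 13 in EN, and was called in EN versus CV (-1.46, SE 0.19, adjusted p = 7.89e-06) and CV versus ENR (1.01, SE 0.19, 0.00105). The mitochondrial carrier subunits had their highest scores in EN. Mpc1 (chr17:8475639-8477628) scored 175, 189, 153 and 158 in CV, 210, 230, 214 and 201 in ENR and 286, 306, 291 and 300 in EN (0.81, SE 0.08, adjusted p = 9.32e-07 in EN versus CV), and Mpc2 (chr1:167389653-167391997, shared with the start of Dcaf6) rose from 307 ± 13.6 in CV to 521 ± 34.5 in EN (0.76, SE 0.07, 1.51e-07). Both were called lower in CV than in ENR (-0.34, 0.00967 for Mpc1 and -0.64, 6.89e-06 for Mpc2), while the mRNA of Mpc1 was called higher there (0.67). That Mpc1 region call was kept in only 2 of 12 fits that each left out a library (up to 0.0408). Ldha (chr7:54100669-54101332) was called lower in EN than in CV in ATAC (-0.80, SE 0.18, adjusted p = 0.00168), while its mRNA was higher, and lost the call when the spread was not modelled along a trend with the mean. The calls in EN versus CV at the regions of Pck1, Fbp1, G6pc, Hk1, Hk2, Ldhb, Mpc1 and Mpc2 given here were kept whichever of the 12 libraries was left out, and with quantile normalization. A second G6pc region (chr11:101229266-101229676), with scores of 0 to 6, was called higher in EN than in CV (1.51, adjusted p = 0.00968) but lost the call in 10 of those 12 fits (up to 0.042) and with quantile normalization.

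**Figure D4:**
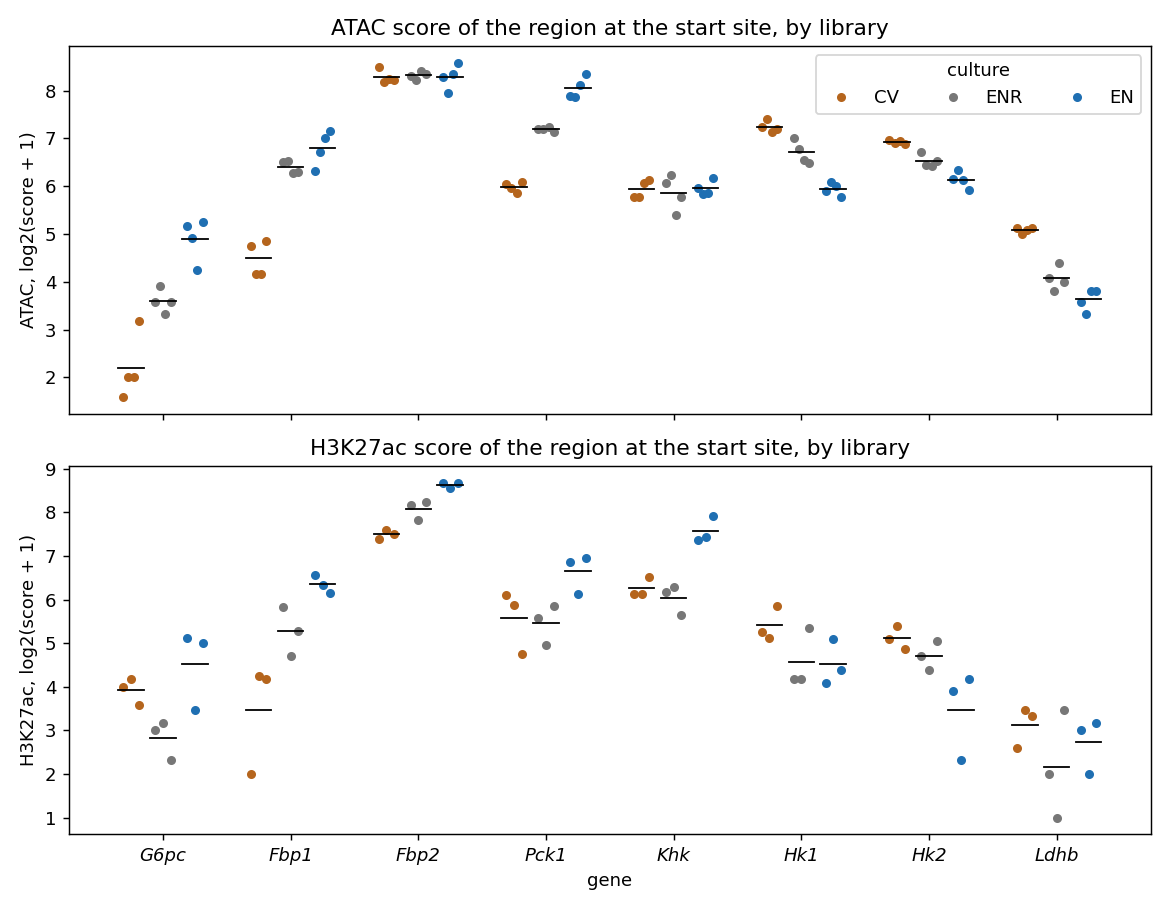
Score of the most accessible start-site region of 8 genes as log2(score + 1), for ATAC (top, 4 libraries per culture) and H3K27ac (bottom, 3 per culture), with 1 point per library and a line at the mean of each culture. In ATAC, G6pc, Fbp1 and Pck1 climb from CV to EN and Hk1, Hk2 and Ldhb fall, while Fbp2 and Khk are level in ATAC and highest in EN in H3K27ac.

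H3K27ac, a mark of active promoters and enhancers, was called at a larger share of the 60 start-site regions than of all regions. Of all regions, only 18086 lie near a start site. The share called over those alone was not computed, here or for the other marks and ATAC. In EN versus CV, 9 of 60 regions were called higher and 2 lower (18.3% against 3.22% of all regions). In EN versus ENR, 3 were called higher and 1 lower (6.67% against 0.549%). In CV versus ENR, 1 was called higher and 1 lower (3.33% against 0.626%). All of these calls rest on modelling the spread along a trend with the mean: without it, none of the 60 regions and none of all 94215 regions was called in any comparison, with 17573 regions at an unadjusted p under 0.05 in EN versus CV. The summed H3K27ac score was also higher in EN (1622103 to 1760511) than in CV (1345873 to 1406651). CV organoids alone had been given valproic acid and CHIR99021, and their part in the H3K27ac differences from CV was not tested. With quantile normalization 5 regions were called in EN versus CV, those of Fbp1, G6pc and Rpia as higher and 2 of Hk2 as lower. In EN versus ENR, 1 was then called higher and 1 lower, and in CV versus ENR 1 higher and 0 lower. At Khk the score was 69, 69 and 90 in CV, 71, 77 and 49 in ENR and 163, 173 and 241 in EN. The EN libraries lay above all others (log2 1.32, SE 0.26, adjusted p = 0.00105 against CV and 1.54, SE 0.26, 0.000925 against ENR), but the first call was lost without EN replicate 3 (0.0157) or EN replicate 4 (0.0389), and the second without CV replicate 5, EN replicate 2, 3 or 4, or ENR replicate 4 (0.0108 to 0.0664). At Fbp2 it was 167, 194 and 181 in CV, 288, 227 and 302 in ENR and 405, 379 and 408 in EN (1.13, SE 0.15, adjusted p = 4.37e-06 in EN versus CV). At Fbp1 it was 3, 18 and 17 in CV, 56, 25 and 38 in ENR and 94, 80 and 70 in EN (2.88, SE 0.48, 0.000123), a call lost without EN replicate 2 (0.0104) or EN replicate 3 (0.0123). At Hk2 (chr6:82723195-82724045) it was 76, 77 and 97 in CV, 54, 60 and 47 in ENR and 18, 5 and 11 in EN (-2.92, SE 0.41, adjusted p = 1.05e-05 against CV). The neighbouring region over the printed Hk2 sequence (chr6:82724087-82724857) was not called in EN versus CV (-1.65, SE 0.49, adjusted p = 0.0357). Rpia (chr6:70740138-70742419) had 107, 123 and 117 in CV, 200, 149 and 184 in ENR and 319, 314 and 380 in EN (1.53, SE 0.18, 6.41e-07), although its mRNA did not differ between EN and CV by this test (adjusted p = 0.252). At Pck1, H3K27ac was 50.7 ± 21.9 in CV, 44.7 ± 13.7 in ENR and 102 ± 29.1 in EN (SD, n = 3) and was not called (adjusted p = 0.0665 in EN versus CV).

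H3K4me3, a mark of promoters, was called higher in EN than in CV at 3 of 58 regions (5.17% against 2.17%), those of Fbp1, G6pc and Mpc2, of which that of Mpc2 (0.61, SE 0.08, adjusted p = 0.00516) was lost without any of 7 of the 9 libraries (all but ENR replicates 1 and 4, up to 0.0204). With quantile normalization 3 regions were called higher and 1 lower. At Fbp1 it was 11, 9 and 13 in CV, 16, 23 and 23 in ENR and 46, 43 and 45 in EN (log2 1.94, SE 0.19, adjusted p = 0.00104), and at G6pc (chr11:101229266-101229676, 391 bp from the start) 1, 3 and 3 in CV, 4, 6 and 4 in ENR and 19, 36 and 40 in EN (3.30, SE 0.38, 0.00247). The G6pc call was lost without EN replicate 2 (0.0146) or EN replicate 4 (0.0108). The region over the G6pc start itself (chr11:101228723-101229112) was not called for H3K4me3 in EN versus CV (3.02, SE 0.55, adjusted p = 0.0208). Nor was it called for H3K27ac (0.61, SE 0.55, 0.584). No region at these start sites was called by limma for H3K4me3 in EN versus ENR (22 with an unadjusted p under 0.05; 2.08% of all regions called) or CV versus ENR (7; 0.0%). For H3K27me3, a mark of repressed genes, limma called none of the 60 regions in EN versus CV, EN versus ENR or CV versus ENR, where 4, 8 and 5 had an unadjusted p under 0.05 and 0.163%, 0.0% and 0.299% of all regions were called.

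Hnf4g, a nuclear receptor of enterocytes, was mapped in 1 library per culture, so that its values have counting intervals but no replicate check. The libraries differed in depth, with 84340, 352600 and 1816497 reads in regions in CV, ENR and EN, of which 93, 362 and 3808 fell in the 60 start-site regions and 33533, 145288 and 1054437 in all 18086 regions near a start site. As a share of the reads in regions, the 60 start-site regions had 0.110% (95% exact Poisson interval 0.0890 to 0.135) in CV, 0.103% (0.0924 to 0.114) in ENR and 0.210% (0.203 to 0.216) in EN, or 1.90 times the CV share in EN. The share in all regions near a start site was also higher in EN, at 39.8% (39.3 to 40.2) in CV, 41.2% (41.0 to 41.4) in ENR and 58.0% (57.9 to 58.2) in EN, or 1.46 times the CV share. The intervals cover counting error only, and 3 reads, the floor, stand for 35.6, 8.51 and 1.65 reads in 1000000. The median region of these start sites had 46.5 reads in EN, beside 31 over all regions near a start site. At the genes that rose, Fbp1 had 0, 1 and 47 reads in CV, ENR and EN, G6pc 0, 3 and 46, Fbp2 3, 33 and 95, Pck1 4, 17 and 88 and Khk 8, 12 and 122. Scaled to 1000000 reads, Pck1 had 47.4 (12.9 to 121) in CV, 48.2 (28.1 to 77.2) in ENR and 48.4 (38.9 to 59.7) in EN, and Khk 94.9 (41.0 to 187), 34.0 (17.6 to 59.4) and 67.2 (55.8 to 80.2), so that no rise from CV to EN was detectable at the depth of the CV library. On the same scale Fbp1 had 25.9 (19.0 to 34.4) in EN against 2.84 (0.0720 to 15.8) in ENR, and G6pc 25.3 (18.5 to 33.8) against 8.51 (1.75 to 24.9). Fbp2 went the other way, with 52.3 (42.3 to 63.9) in EN against 93.6 (64.4 to 131) in ENR, and had 35.6 (7.34 to 104) in CV. The region with the most reads in EN was that of Pkm (288 reads, above 99.55% of all regions), followed by Gapdh (262 reads), both genes that did not rise 2-fold from CV to EN, and Hk1, whose mRNA fell, had 62.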

How the data were processed

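Small intestinal organoids in 3 cultures (CV, ENR and EN) were profiled by RNA-seq, ATAC-seq, histone ChIPmentation and Hnf4g ChIPmentation. The authors deposited expected counts (estimated counts) and TPM per transcript from kallisto 0.43.0 (version per the submitters' notes), on an index restricted to transcripts with quantified proteins, and mRNA copies scaled to spike-ins. The authors also deposited a score per region of a union of MACS2 2.0 peaks on mm9 (reads aligned with BWA, duplicates removed with Picard), that is, read counts normalized and rounded to whole numbers by a method not given in the sources used here, with H3K27me3 regions extended to 1000 bp. For Hnf4g the authors deposited raw read counts per region.

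Samples were grouped by the labels. Expected counts were rounded and tested with edgeR 4.0.16 (TMM, quasi-likelihood, all 12 libraries in one fit) on transcripts detected in 4 or more libraries, without the 92 spike-ins. Scores were tested as log2(score + 1) with limma 3.58.1 with a trend, for regions above 0 in at least 3 libraries. Calls needed a Benjamini-Hochberg adjusted p under 0.01. Genes are given in every library where the change was also at least 2-fold in at least 1 comparison, and non-members come from the pathway list (the 6 largest differences between EN and CV) and marker lists. Alternatives were DESeq2 1.42.0, other scalings, filters, units and thresholds, a replicate block and leaving out each library. The fits were tested on simulated data. The genes, lists and tests were chosen with earlier results of these data known. RNA libraries held 5630977 to 8859757 expected counts, and replicate SDs set the precision. A further isozyme family is not reported here. Not analysed here were 10 further histone libraries and 2 further RNA samples. R 4.3.3 and Python 3.11.15 were used.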

Additional observations from a re-analysis of the deposited data

Results flagged for a closer look

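Of 87 groups of 4 libraries examined for a value far from the others, 5 had a gap to the nearest library above the 95% critical value of Dixon for 4 values, as a share of the range, and chance alone marks about 1 in 20 groups. Aldoc had 128 CPM in ENR replicate 1, with a gap of 0.848 of the range, against 115 CPM in the lowest ENR library. Gapdh had 1608 CPM in CV replicate 1 (gap 0.868), against 1528 CPM in the lowest. Ldhb had 0.128 CPM, from 1 count, in ENR replicate 1 and 0 in the other ENR libraries (gap 1.0). The ATAC score at the start of G6pc was 8 in CV replicate 4 and 2 in the lowest CV library (gap 0.833), and that of Fbp2 was 360 in CV replicate 1 and 291 in the lowest (gap 0.870). None of these values overlapped a culture from which the gene's level or region was called different.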

How the results depend on the processing

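The replicate numbers did not pair the RNA libraries (correlations of deviations from the culture means from -0.08 to 0.11 over 12 pairs), and with the replicate block 27, 26 and 29 of 33 genes were called in EN versus CV, EN versus ENR and CV versus ENR, as without it. In ATAC the correlations were all above 0 (0.07 to 0.46 over 12 pairs) but not all over 0.1, libraries correlated best with their own number in 16 of 24 cases, and the replicate block gave 16, 7 and 8 of 60 regions, beside 14, 6 and 8 without it. In H3K27ac (-0.05 to 0.04) the replicate block left 0, 0 and 0 of 60 regions and in H3K4me3 (-0.08 to 0.13) 0 of 58 in EN versus CV. Of 1886 values of single genes under 23 settings, 1794 kept their direction and side of the threshold, 62 lost the call and 30 reversed. With spike-in scaling the log2 fold change in EN versus CV reversed for Gpi1 (-0.11), Aldoc (-0.046), Gapdh (-0.0025), Ldha (-0.15), Tkt (-0.24) and Mpc1 (-0.074), and in EN versus ENR for Aldoa (-0.17), Tpi1 (-0.12), Pgk1 (-0.17), Pkm (-0.21), Pcx (-0.042), G6pdx (-0.16), Taldo1 (-0.14) and Mpc2 (-0.22). On log2(TPM + 1) and log2(TPM + 0.1) it reversed in EN versus CV for Gpi1 (-0.022 in both), Ldha (-0.052 in both) and Tkt (-0.13 and -0.14). On copies it reversed in EN versus CV for Pfkp (0.68), Aldoa (0.21), Pgk1 (0.60), Pgam1 (0.36), Pkm (0.55), G6pdx (0.64), Rpe (0.49) and Taldo1 (0.33), and in EN versus ENR for Pgls (0.50) and Rpia (0.10). Called transcripts numbered 17 of 37 in EN versus ENR with spike-ins (27 with TMM) and 14 in CV versus ENR on copies (32 with TMM). Without each library in turn they ranged from 29 to 31, 27 to 29 and 32 to 34. Shares from expected counts, which are not divided by length, in CV, ENR and EN were 46.7%, 21.6% and 34.0% for Hk1, 44.7%, 61.2% and 48.7% for Pfkl and 51.0%, 35.7% and 49.0% for Pfkp. They were 98.5% for Eno1 in ENR, 99.7% for Ldha in CV, 18.9% and 32.5% for Fbp1 in ENR and EN, and 7.76% and 86.0% for Pck1 in ENR and EN. Of the start-site regions, ATAC called 9, 3 and 3 without the trend, 16 in EN versus ENR at an adjusted p under 0.05, and 61, 34 and 25 of 207 within 10 kb. H3K27ac called 0, 0 and 0 without the trend, 5, 2 and 1 with quantile normalization, 4 in CV versus ENR at 0.05 and 21 in EN versus CV within 10 kb. H3K4me3 called 7 and 2 of 190 within 10 kb in EN versus CV and EN versus ENR, 5 and 5 at 0.05, and in EN versus ENR 1 without the trend, 1 with a pseudocount of 5 and 2 with quantile normalization. Leaving out each library gave 11 to 14, 5 to 7 and 4 to 8 ATAC regions, 4 to 11, 0 to 5 and 0 to 1 H3K27ac regions, and 1 to 3 and 0 to 2 H3K4me3 regions in EN versus CV and EN versus ENR. The EN to CV ratio of Hnf4g reads was 40.9 raw and 1.90 as a share. The cause of these changes was not tested. Ldhb in ENR and EN and Pck1 in CV lie near the floor of 3 counts, and the CV Hnf4g library has the lowest depth.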
